A study of Homo sapiens with 3 samples.

Results

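Ribosome peaks, the stretches of mRNA on which ribosome-protected fragments piled up, were followed on 10 genes that encode RNA helicases of the DEAD/DEAH-box family. The members were a given list (DDX3X, DDX5, DDX6, DDX17, DDX21, DDX39A, DDX39B, DDX46, DHX9 and DHX15), and a peak was counted for the gene of the RefSeq transcript in its annotation. They held 104 of the 46819 peaks listed over 3 libraries, out of 3582 genes with a peak. At least 1 peak was listed for 6 of the 10 members. The libraries came from HEK293T, a human embryonic kidney line, transfected with empty pCDNA3.1 vector, with wild-type DDX3X or with DDX3X G325E, a substitution of glycine by glutamate. Both proteins carried an N-terminal FLAG tag, transfection was transient and lasted 24 h, and all cells, vector cells included, kept their own DDX3X gene. Per the labels, cells of every construct were given harringtonine (2 µg/ml, 90 s), a drug that traps ribosomes as they initiate, followed by cycloheximide (100 µg/ml), which freezes elongation. Cycloheximide alone is named in the study's methods, and which account applies could not be settled. There was 1 library per construct, so no difference here could be set against the spread between cultures, no test was made, and intervals cover counting error only.

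DEAD-box and DEAH-box proteins use ATP to open short RNA duplexes or to remodel RNA-protein complexes, through a pair of RecA-like domains that carry the motif after which the family is named. DDX3X helps ribosomes to initiate on mRNAs with structured leaders and joins stress granules, and its gene is mutated in medulloblastoma. Other members act in splicing (DDX46, DHX15), in mRNA export (DDX39A, DDX39B), in ribosome assembly (DDX21), in mRNA decay and repression (DDX6), or as cofactors of transcription, splicing and microRNA processing (DDX5, DDX17, DHX9).

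The vector list held 11219 peaks, that of wild-type 19920 and that of G325E 15680, and they gave no peak height or read number. Read totals stand in the study's supplement and were not used here, and after removal of duplicates they are highest for wild-type and lowest for G325E. Numbers of peaks are therefore also given per 10000 listed peaks, a scale on which 3 peaks (taken as the floor) equal 2.67 (vector), 1.51 (wild-type) and 1.91 (G325E). The authors' peak numbers had gaps in vector (14.8% missing) and wild-type (13.5%) but none in G325E, and what the missing rows held is not analysed here. Peaks of all other genes also differed in base composition, with a mean GC content of 62.7%, 62.3% and 73.1% in the 31 nt around the midpoint (vector, wild-type and G325E in this order). The labels call the cell type neuronal, whereas 3 of 13 neuronal markers (TUBB3, NEFL and NEFM) had peaks, in every list, and the other 10 had none. None of 6 proximal tubule markers and none of 5 blood markers had a peak, and among 10 markers of epithelium and embryonic kidney KRT8 and KRT18 had peaks in wild-type and SIX2 in G325E.

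The peaks on which the member results turn are shown first as sequence, each read 5′ to 3′ on the strand of the gene from GRCh37. The first set covers the codon changed in the mutant and the start codons that lay under a peak, with that codon in capitals, so that it can be seen where on the mRNA a ribosome peak sat.
DDX3X codon substituted in G325E, wild-type peak, chrX:41203587-41203613, plus strand: agtagccactccaGGAcgtctagtgga
DDX21 start codon, within a wild-type peak, chr10:70715969-70715998, plus strand: acctgcgctgaagATGccgggaaaactccg
DDX39A start codon, wild-type peak, chr19:14524018-14524036, minus strand: catcATGgcagaacaggat
DDX17 upstream start codon, G325E peak, chr22:38902232-38902252, minus strand: gtagccaaacCTGcccaccgg
DDX17 first in-frame ATG, under a peak in all 3 lists, chr22:38901990-38902019, minus strand: atccttttgggaccATGcgcggaggaggct

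The second set shows DDX3X where both constructs left peaks, with capitals for the bases listed in wild-type and in G325E, and last the centre of a long peak that was listed in G325E only and so has no capitals.
DDX3X exon 13, chrX:41205652-41205663, plus strand: GTGGCTACAGCA
DDX3X exon 14, chrX:41205759-41205786, plus strand: TAGCAGCAAGAGGACTGGACAtttcaaa
DDX3X exon 14, chrX:41205849-41205875, plus strand: gtcgtaCGGGACGTGTAGGAAAccttg
DDX3X exon 15, chrX:41206178-41206202, plus strand: ttGAAGCTAAACAAGAAGTGCCGtc
DDX3X exon 16, chrX:41206626-41206655, plus strand: tccagcttcagcagcagccgcgcaagcagc

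The third set shows stretches of other members that were listed in more than 1 library, with the shared bases in capitals.
DDX21 exon 15, all 3 lists, chr10:70742428-70742457, plus strand: CGGGACGGAAACAGAAGATTCAGAGGACAG
DDX5 exon 3, vector and wild-type, chr17:62500373-62500395, minus strand: TAGAGGTCACAACTGCCCGAAGC

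DDX3X, the gene that the constructs express (chrX:41193415-41209527, plus strand, 662 codons), was read first as a check of the labels. Vector had 0 DDX3X peaks, wild-type 32 and G325E 9, or 0, 16.1 and 5.74 per 10000 listed peaks. DDX3X thus stood at least 6.01-fold higher in wild-type than in vector and at least 2.15-fold higher in G325E than in vector, taking the floor of 3 peaks for vector. The level in wild-type was 2.80 times that in G325E (95% exact interval 1.31 to 6.67). The interval takes peaks as independent, although some adjoined across an exon junction. Both libraries labelled with a DDX3X construct held DDX3X peaks and the vector library held none, although HEK293T cells carry the gene. Peaks from the plasmid and from the chromosomal gene cannot be told apart.

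**Figure D1:**
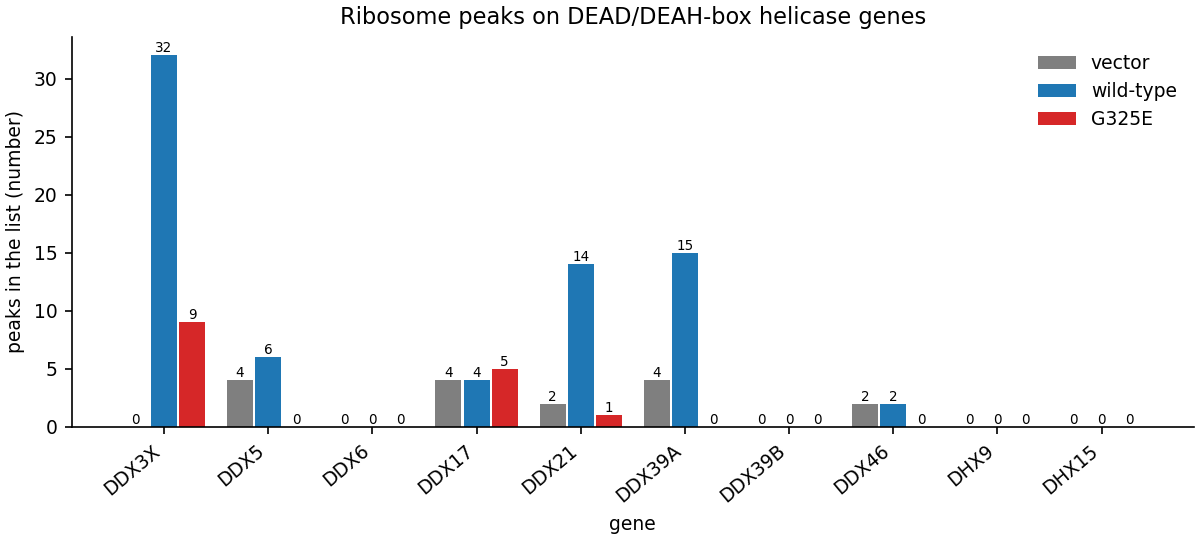
Number of listed ribosome peaks (y axis) for each of the 10 members (x axis), with 1 bar per construct (vector grey, wild-type blue, G325E red) and its value above it. DDX3X stands at 32 in wild-type, 9 in G325E and 0 in vector, and DDX6, DDX39B, DHX9 and DHX15 have no peak in any list.

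DDX3X peaks were almost all coding. In wild-type 31 lay in coding sequence and 1 in the 3′-UTR, and in G325E all 9 were coding. Together they covered 914 of the 1986 coding bases in wild-type (46.0%) and 264 in G325E (13.3%). None lay in exon 1, in the 5′-UTR or over the start codon in either list, and the most upstream wild-type peak lay in exon 2.

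The constructs differed in where along DDX3X the peaks lay. Wild-type peaks were spread over 13 of the 17 exons, with midpoints from codon 25 in exon 2 to codon 647 in exon 17, and only exons 1, 3, 4 and 11 had none. G325E peaks lay in 4 exons (13, 14, 15 and 16), with midpoints from codon 486 to codon 615. By exon, G325E had 2 peaks in exon 13, 2 in exon 14, 3 in exon 15 and 2 in exon 16, against 4, 3, 3 and 1 in wild-type. Upstream of exon 13, wild-type had peaks in exons 2, 5 to 10 and 12 and G325E had none.

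Within the stretch that G325E peaks spanned, codons 479 to 633, wild-type had 9 peaks and G325E, by the choice of the stretch, all of its 9. The other 23 wild-type peaks lay outside it, which would be 18.1 peaks in a list of the G325E length, against 0 found. The stretch was set by the G325E peaks themselves, so both numbers are a description, with no interval. At least 1 base was shared with wild-type by 8 of the 9 G325E peaks, and 8 of the 32 wild-type peaks shared a base with G325E. Start and end were the same in both lists for 2 of them, 1 being the exon 13 peak printed above. The other, in exon 16, was a row with end before start (41206569 and 41206568), given as minus strand and taken as 1 base. It was the only wild-type entry in exon 16, so that exon is among the 13 with a wild-type peak through this row alone.

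The codon substituted in G325E (GGA, chrX:41203600-41203602, exon 10) lay under 1 wild-type peak and under no G325E peak. The nearest G325E peak was centred on codon 486. In exon 16 the G325E list held a 108 bp peak (chrX:41206587-41206694) at a local GC content of 64.5%, and wild-type held there 1 position of a single base. The coding part of exon 16 had 60% GC, against 45.9% over the whole coding sequence.

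Local GC content did not separate the wild-type DDX3X peaks that were shared with G325E from the rest. It averaged 45.6% (SD 6.55, n = 8 peaks, 35.5% to 54.8%) for the shared ones and 45.4% (SD 7.72, n = 24, 29.0% to 61.3%) for the others. Over all peaks of the gene it was 45.5% (SD 7.34) in wild-type and 48.7% (SD 8.90) in G325E. All DDX3X peaks in G325E were below the 73.1% mean of that list's other genes. Peaks were short, with a median of 26 bp in wild-type (1 to 98) and 21 bp in G325E (1 to 108). An edge within 3 nt of an exon boundary was found for 14 wild-type and 4 G325E peaks. Some peaks adjoined on the mRNA and were parted only by an exon junction. In both lists, for example, a peak ending at codon 499, the last of exon 13, was followed by one starting in codon 500. Numbers of DDX3X peaks, their ratios and intervals count such neighbours as separate peaks.

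**Figure D2:**
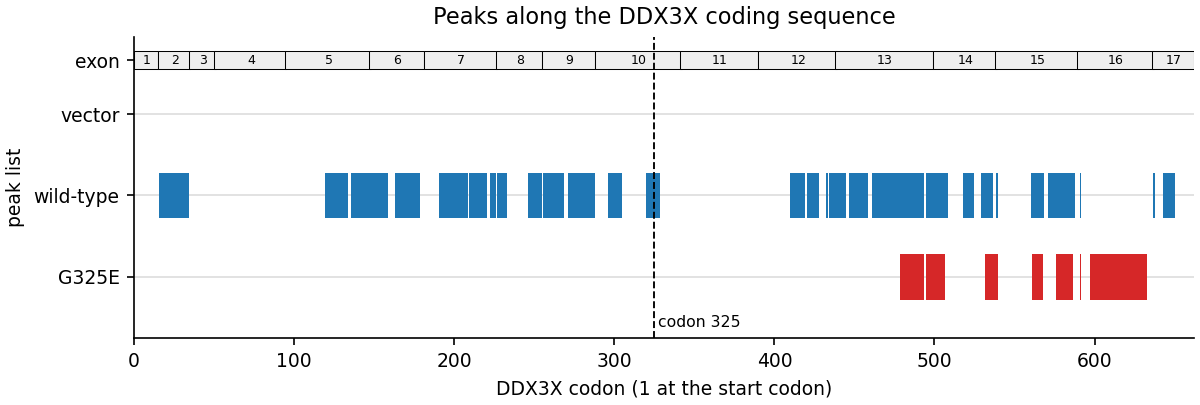
Coding DDX3X peaks (boxes, to scale) along the coding sequence (x axis, codon) in vector (0), wild-type (31) and G325E (9), with exons numbered above and the codon substituted in G325E as a dashed line. The G325E peaks sit between codons 479 and 633, whereas those of wild-type run along most of the coding sequence.

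DDX17 was the member with the most similar numbers in the 3 lists. It is a close paralogue of DDX5, acts in splicing, transcription and microRNA processing, and is made in a shorter form from an AUG and a longer form from an upstream CUG. DDX17 (chr22:38879443-38902316, minus strand, 729 codons) had 4 (vector), 4 (wild-type) and 5 (G325E) peaks, or 3.57, 2.01 and 3.19 per 10000. The ratios were 0.563 for wild-type to vector (95% exact interval 0.105 to 3.02), 1.59 for G325E to wild-type (0.342 to 8.0) and 0.894 for G325E to vector (0.193 to 4.51). All 3 intervals include 1.

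Apart from 1 wild-type peak in intron 1, every DDX17 peak lay in exon 1, at the 5′ end of the coding sequence or in the leader just before it. Of 2187 coding bases, 202 were under a vector peak, 216 under a wild-type peak and 214 under a G325E peak. In the canonical transcript the coding sequence begins at a CTG, and its first in-frame ATG is codon 80 (chr22:38902003-38902005). That ATG lay under 1 peak in each of the lists. The upstream CTG was covered in G325E only, by a 21 bp peak. In vector and in wild-type, 4 of 4 and 3 of 4 peaks shared bases with a G325E peak, and local GC content averaged 72.6% for vector, 75.8% for wild-type and 67.1% for G325E peaks.

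DDX21, a nucleolar helicase of ribosomal RNA synthesis and processing, had 2 (vector), 14 (wild-type) and 1 (G325E) peaks, or 1.78, 7.03 and 0.638 per 10000. The gene lies on chr10:70715926-70744824 (plus strand, 783 codons). Wild-type stood 3.94 times above vector (95% exact interval 0.905 to 35.7), and 11.0 times above G325E (1.68 to 466). The first of these intervals includes 1 and the second does not. What the lists shared was a long peak in exon 15, near the 3′ end of the coding sequence, with a length of 216 bp (vector), 218 bp (wild-type) and 207 bp (G325E). A shorter peak upstream of it in the same exon, from position 70742300, was listed in vector (5 bp) and wild-type (10 bp).

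The 12 remaining wild-type peaks of DDX21 lay at the 5′ end. Of these, 6 were annotated to the promoter-TSS or 5′-UTR class (near a transcription start site or in the leader) and 6 to exon 2, between codons 41 and 167. Of the first 6, 4 fell in intron 1 of the canonical transcript. A 55 bp peak (chr10:70715953-70716007) covered the start codon. The exon 2 peaks were AT-rich, with 29.0% to 48.4% GC around their midpoints. Wild-type peaks covered 641 of 2349 coding bases (27.3%), against 221 in vector (9.41%) and 207 in G325E (8.81%).

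DDX5, the paralogue of DDX17 with related roles, had 4 (vector), 6 (wild-type) and 0 (G325E) peaks, or 3.57, 3.01 and 0 per 10000. The ratio of wild-type to vector was 0.845 (95% exact interval 0.200 to 4.07, which includes 1). Against the floor of 3 peaks, G325E was at least 1.57-fold lower than wild-type and at least 1.86-fold lower than vector, both below the 2-fold threshold used here. DDX5 (chr17:62494372-62502407, minus strand, 614 codons) carried its vector peaks in exons 3, 5 and 6 and its wild-type peaks in exons 2, 3 and 6. A 23 bp peak in exon 3 had the same start and end in vector and wild-type. Every DDX5 peak was coding, with a midpoint between codons 15 and 179.

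DDX46, which helps the U2 particle to engage the branch site before splicing, had 2 (vector), 2 (wild-type) and 0 (G325E) peaks, all in exon 3. No list exceeded the floor for DDX46, so no fold is given. The gene lies on chr5:134094469-134166811 (plus strand, 1032 codons). Peaks covered 130 of its 3096 coding bases in vector and 137 in wild-type, and each vector peak overlapped a wild-type peak.

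DDX39A and DDX39B are near-identical proteins that load export factors on spliced mRNA, and the study describes its reads as uniquely mapped. How far sequence shared by both genes bears on their peaks was not tested. DDX39A (chr19:14519610-14530153, minus strand, 427 codons) had 4 (vector), 15 (wild-type) and 0 (G325E) peaks, or 3.57, 7.53 and 0 per 10000. Wild-type stood 2.11 times above vector (95% exact interval 0.673 to 8.74, which includes 1) and at least 3.94-fold above G325E. In vector 3 peaks were in the promoter-TSS class and 1 was annotated as non-coding. In wild-type 4 were promoter-TSS, 5 lay in exons 2 and 3, and 6 in introns, 1 of these on the opposite strand. The DDX39A start codon lay under a wild-type peak alone, and coding bases were covered in wild-type alone (136 of 1281, 10.6%).

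DDX6, DDX39B, DHX9 and DHX15 had no peak under the gene assignment used here. DDX6 activates mRNA decapping and represses translation, DHX9 resolves double-stranded RNA and R-loops, and DHX15 takes spliceosomes apart. By position alone, DDX39B held 1 vector peak (chr6:31500584-31500630) and 1 wild-type peak (chr6:31500585-31500630) in coding exon 7, which the annotation gave to the small nucleolar RNA SNORD117. DHX15 likewise held 1 wild-type peak of 48 bp (chr4:24538736-24538783) in exon 11, given to the microRNA gene MIR573. DDX6 and DHX9 had none by position either, so neither was compared between lists. Low expression and a lack of ribosomes cannot be told apart in these lists, for these members as for all genes.

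**Figure D3:**
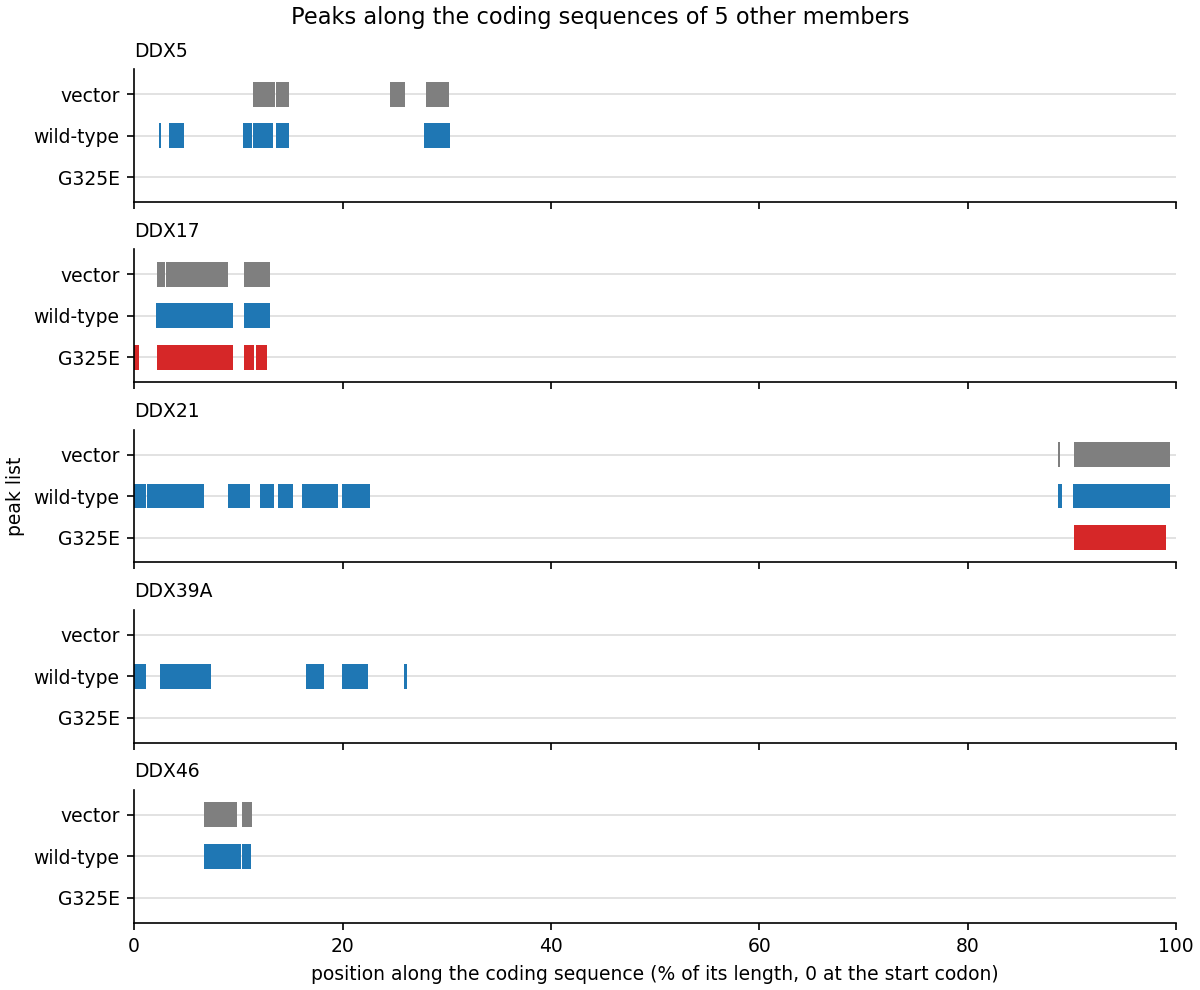
Peaks of DDX5, DDX17, DDX21, DDX39A and DDX46 along their coding sequences (x axis, percent of its length from the start codon), 1 row per list, with coding parts of peaks drawn as boxes. DDX17 peaks crowd at the 5′ end in all lists, DDX21 shares only an exon 15 peak near the 3′ end with G325E, and DDX5, DDX39A and DDX46 have no G325E peak.

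Counted over members with more than 3 peaks in 1 of the lists compared, 3 of 5 were at least 2-fold higher in wild-type than in vector (DDX3X, DDX21 and DDX39A) and 0 were lower, where over all 2188 genes compared 9.1% were higher and 16.3% lower. Of those 3 members, DDX3X was the expressed construct, and for DDX21 and DDX39A the interval of the ratio included 1. With only peaks of at least 20 bp, or at 3-fold, DDX39A was no longer called and the count was 2, and with the length limit its wild-type peaks numbered 9 in place of 15. From wild-type to G325E, 3 of 5 members were at least 2-fold lower (DDX3X, DDX21 and DDX39A) and 0 higher, where over 2630 genes 15.9% were lower and 25.1% higher. From vector to G325E, 1 of 4 members was higher (DDX3X) and 0 were lower, where over 2132 genes 16.7% were higher and 20.8% lower. That call of DDX3X was lost with only peaks of at least 20 bp, at 3-fold, and with a floor of 5 peaks. The comparisons share libraries. Nothing particular to the members can be read from counts of 4 or 5 genes.

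Absence was also counted. Among the 5 members with at least 4 wild-type peaks, 2 (DDX5 and DDX39A) had no G325E peak, beside 34.2% of all 2045 such genes. In vector 1 of the 5 (DDX3X) had no peak, beside 31.1% of all such genes. In all, 5 members had a vector peak, 6 a wild-type peak and 3 a G325E peak.

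Member peaks lay mainly in exons in every list. In G325E 14 of 15 were exonic (93.3%, 95% Wilson interval 70.2 to 98.8), in wild-type 54 of 73 (74.0%, 62.9 to 82.7) and in vector 11 of 16 (68.8%, 44.4 to 85.8). Over all other genes the exon shares were 49.4% (vector), 51.5% (wild-type) and 35.5% (G325E). The promoter-TSS and 5′-UTR classes together held 4 of 16 member peaks in vector, 11 of 73 in wild-type (15.1%, 8.63 to 25) and 1 of 15 in G325E (6.67%, 1.19 to 29.8), against 28.1%, 26.3% and 43.4% over all other genes. Members thus had a smaller share at transcript starts in G325E than the rest of that list, and 9 of those 15 peaks were from DDX3X. Without DDX3X, 11 of 41 wild-type peaks (26.8%, 15.7 to 41.9) and 1 of 6 G325E peaks (16.7%, 3.01 to 56.4) were in the start classes. Both intervals include the share of all other genes, so without DDX3X the smaller share in G325E was not resolved.

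Along the coding sequence, scaled to run from 0 (start codon) to 1 (stop codon), member peaks had a mean position of 0.276 for vector (SD 0.327, n = 11 peaks), 0.400 for wild-type (SD 0.311, n = 55) and 0.618 for G325E (SD 0.364, n = 14). The order followed from DDX3X, since without it the means were 0.276, 0.186 (n = 24) and 0.247 (n = 5). Over all other genes they were 0.465, 0.470 and 0.368. Apart from DDX3X, 9 of 11 coding peaks in vector (81.8%, 95% Wilson interval 52.3 to 94.9), 22 of 24 in wild-type (91.7%, 74.2 to 97.7) and 4 of 5 in G325E (37.6 to 96.4) lay before the midpoint of the coding sequence, against 53.8%, 53.1% and 67.2% over all other genes. The 4 in G325E were all from DDX17, and the fifth was the exon 15 peak of DDX21. The vector and G325E intervals include the share of all other genes. The wild-type interval does not, but it takes as independent peaks that clustered within genes (9 from DDX21, 6 from DDX5 and 5 from DDX39A).

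Sharing of positions was asked for next. Of the member peaks in vector, 14 of 16 shared 1 base or more with wild-type (87.5%, 95% Wilson interval 64.0 to 96.5), against 76.8% over all other genes, and 5 of 16 overlapped a G325E peak (31.2%, 14.2 to 55.6), against 48.1%. Of the wild-type peaks 14 of 73 overlapped vector (19.2%, 11.8 to 29.7) and 12 of 73 overlapped G325E (16.4%, 9.66 to 26.6), against 41.7% and 35.0% over all other genes. Of the G325E peaks 13 of 15 overlapped wild-type (86.7%, 62.1 to 96.3), against 47.2%, and 5 of 15 overlapped vector (33.3%, 15.2 to 58.3), against 35.4%. The intervals for vector in wild-type, vector in G325E and G325E in vector include the share of all other genes. DDX3X had no vector peak that its wild-type peaks could overlap. Without DDX3X, 14 of 41 wild-type peaks overlapped vector (34.1%, 21.6 to 49.5) and 5 of 6 G325E peaks overlapped wild-type (83.3%, 43.6 to 97.0). Both intervals then include the share of all other genes. For wild-type peaks that overlapped G325E (4 of 41, 9.76%, 3.86 to 22.5) the interval still did not.

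GC content around member peaks was on average 58.5% for vector (SD 13.9, n = 16 peaks), 52.3% for wild-type (SD 13.4, n = 73) and 55.1% for G325E (SD 11.9, n = 15). Without DDX3X the means were 58.5%, 57.6% and 64.5%, so their order depended on it. Over all other genes the mean was 62.3% in wild-type and 73.1% in G325E. Coding GC content of the members themselves was 45.9% for DDX3X, 51.8% for DDX17, 44.7% for DDX21, 56.4% for DDX39A, 43.6% for DDX5 and 43.0% for DDX46. The part of base composition in the peak numbers of members was not tested.

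**Figure D4:**
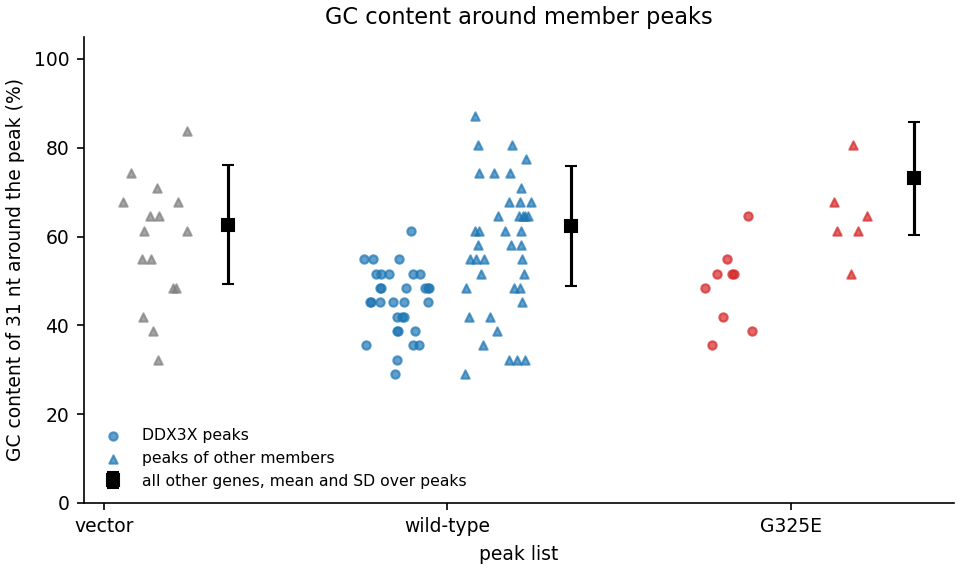
GC content (y axis, %) in the 31 nt around each member peak's midpoint by list, with circles for DDX3X, triangles for other members, and a square with bars for the mean and SD over peaks of all other genes. DDX3X peaks in G325E lie from 35.5% to 64.5%, below the mean of 73.1% over all other genes of that list.

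Under the gene assignment used here, 30 of 46 other DEAD/DEAH-box genes had no peak in any list. Another 6 had up to 4 in a list and 10 had at least 5 in a list. The 46 genes together had 23 vector, 83 wild-type and 51 G325E peaks. Relative to vector, wild-type was at least 2-fold higher for 2 of 7 genes compared, DDX23 (5.07, 95% exact interval 0.702 to 222) and DDX49 (at least 2.25), and lower for 0, beside 9.1% and 16.3% over all genes compared. Of the 12 wild-type peaks of DDX49, 5 were on the opposite strand and 5 lay outside its canonical transcript. Its call rests in part on these peaks and was not repeated without them. From wild-type to G325E, 3 of 10 were higher and 4 lower, beside 25.1% and 15.9% over all genes compared. Nothing particular to the family is read from these counts.

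The helicases that were higher in G325E were DDX31, DDX51 and DDX54, all known from the nucleolus and ribosome assembly. DDX54 had 0 (vector), 1 (wild-type) and 11 (G325E) peaks, a ratio of 14.0 to wild-type (95% exact interval 2.03 to 602). DDX31 had 1, 1 and 8 (10.2, 1.36 to 451) and DDX51 had 0, 1 and 7 (8.89, 1.14 to 401). Coding GC content was 63.6% for DDX54 and 66.0% for DDX51. Many of these peaks were listed on the strand opposite to the gene they were annotated to. All 8 G325E peaks of DDX31 lay outside its canonical transcript, as did 6 of 7 for DDX51 and 4 of 11 for DDX54. On the opposite strand were 7 of 8 for DDX31, 5 of 7 for DDX51 and 5 of 11 for DDX54. With peaks on the strand of the gene alone, DDX31 and DDX51 would not exceed the floor of 3 peaks and would not be compared.

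The helicases that were lower in G325E were DDX23 and DHX8, which act in the spliceosome, and DDX24 and DDX27, which act in the nucleolus. DDX23 had 1 (vector), 9 (wild-type) and 0 (G325E) peaks and was at least 2.36-fold lower in G325E than in wild-type. DDX27 and DHX8 each had 0, 8 and 0 (at least 2.10-fold lower). DDX24 had 3, 10 and 3, with wild-type 2.62 times above G325E (95% exact interval 0.676 to 14.8), which includes 1. Wild-type DHX8 peaks ran from codon 162 to 349 of 1220, and those of DDX27 from codon 635 to 725 of 765.

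The remaining named helicases stayed within 2-fold between wild-type and G325E. DDX41, mutated in myeloid leukaemia, had 5, 6 and 6 peaks in the same order. Of these, 3, 2 and 2 were on the opposite strand and outside its canonical transcript. DDX49 had 0, 12 and 8, of which 5 in wild-type and 2 in G325E were on the opposite strand. EIF4A3, the helicase of the exon junction complex, had 8, 11 and 5, and vector stood 2.24 times above G325E (95% exact interval 0.645 to 8.69). In G325E the start classes held 34 of the 51 peaks of the other family genes (66.7%, 95% Wilson interval 53.0 to 78.0), against 1 of 15 for the members. The share over all genes other than the members was 43.4%, and 9 of the 15 member peaks were from DDX3X. Many of the 34 lay outside the canonical transcript of their gene, among them 8 of 8 for DDX31 and 6 of 7 for DDX51. EIF4A1, which unwinds leaders as part of the cap-binding complex, had 2, 1 and 0 peaks by the gene assignment. In its gene body lay 23 vector, 29 wild-type and 0 G325E peaks that were annotated to other genes. Likewise, EIF4A2 had none by the assignment, but 6 vector, 5 wild-type and 0 G325E peaks lay in its gene body. DDX11 and DHX40, also without assigned peaks, each held 3 wild-type peaks in the gene body.

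**Figure D5:**
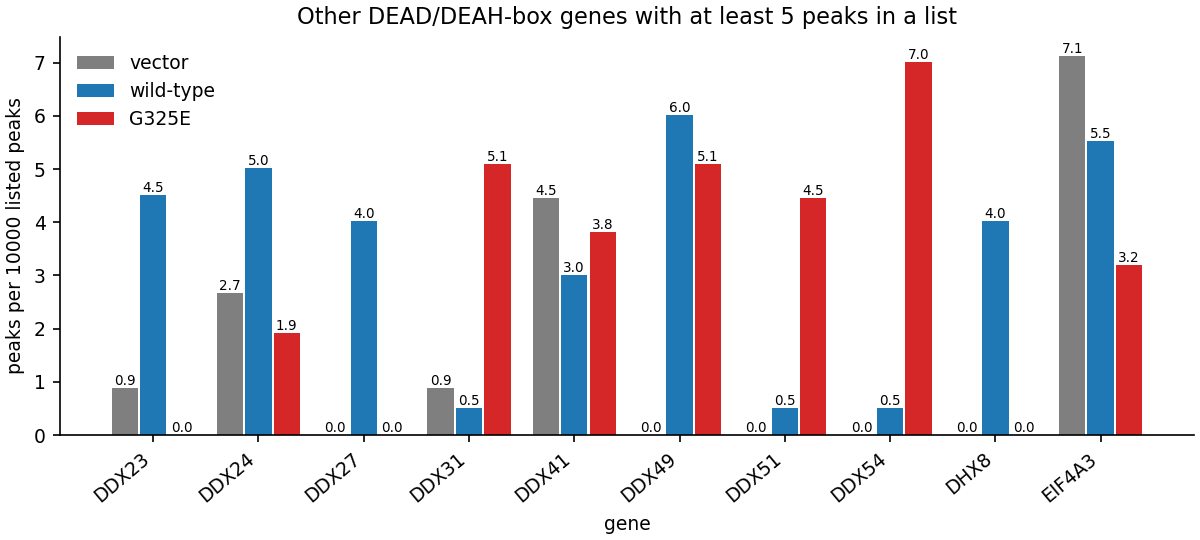
Peaks per 10000 listed peaks in vector, wild-type and G325E for the 10 other DEAD/DEAH-box genes with at least 5 peaks in a list. DDX31, DDX51 and DDX54 stand highest in G325E (8, 7 and 11 peaks), whereas DDX23, DDX27 and DHX8 have peaks in wild-type and none in G325E. Most G325E peaks of DDX31 and DDX51 were listed on the strand opposite to the gene.

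Genes whose peaks were divided over the lists most nearly as those of DDX3X were sought among the 725 genes with at least 20 peaks in all. On lists scaled to the same total, DDX3X had 73.7% of its peaks in wild-type and 26.3% in G325E. By Hellinger distance over the 3 shares (0 for the same split), the nearest were PTDSS2 and TWF2, each with 0, 18 and 5 peaks (0.00193), and DCTN1 with 0, 16 and 5 (0.0166). PTDSS2 makes phosphatidylserine, TWF2 binds actin and DCTN1 is a dynactin subunit. The likeness rests on 3 libraries.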

How the data were processed

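Ribosome profiling of 3 HEK293T libraries, 1 per construct, was analysed. The authors deposited 1 peak list per library, with peak positions, strand, annotated region and distance to the nearest start site, called separately in each. Per the submitters' processing notes, cutadapt and BWA 0.5.5 were used on hg19. The study describes coverage cut-offs on Bambino output, and the HOMER version is not given in the sources used here. The lists hold no read counts, and the read totals in the study's supplement were not used here, so no peak could be set against its depth. Peaks were assigned by the RefSeq identifier of their annotation where it maps to the Gene Name column, otherwise by that column. Regions were those of the authors. Coding positions used the GENCODE 44 canonical transcript on GRCh37, and GC content 31 nt around midpoints. Starts ran 1 base late against exon edges (5615 peaks, against 74 on the first base), and rows with end before start (163, 272 and 236) were all given as minus strand and taken as 1 base, so their strand is doubtful. Genes with more than 3 peaks in 1 of the lists compared were called at 2-fold per 10000 listed peaks, with 0 set to 3 peaks. Shares carry 95% Wilson intervals and ratios exact conditional ones. The named genes were the 10 members, other family genes with at least 5 peaks in a list, and the 3 genes nearest DDX3X by Hellinger distance. EIF4A1, EIF4A2, DDX11 and DHX40 were named after their values were seen. The members and lists were chosen with earlier results of these data known. Scripts were tested on simulated data. Python 3.11.15 was used with numpy 2.4.6, scipy 1.17.1, pandas 2.3.3 and matplotlib 3.10.9.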

Additional observations from a re-analysis of the deposited data

How the results depend on the processing

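No paired analysis was possible because there was 1 library per construct, and for the same reason no replicate could be left out. Of 294 values under alternatives, no member's call between lists turned its direction, but orders of the pooled means and shares did. Leaving out DDX3X, an alternative chosen after seeing the data, moved the wild-type start share from 15.1% to 26.8% and exon share from 74.0% to 56.1%, mean position from 0.400 to 0.186 in wild-type and from 0.618 to 0.247 in G325E, the overlap with vector from 19.2% to 34.1% of wild-type peaks and from 33.3% to 83.3% of G325E peaks, and GC content from 52.3% to 57.6% in wild-type and from 55.1% to 64.5% in G325E. Without DDX3X, wild-type thus stood below vector in mean position (0.276) and above it in start share (25%), and G325E above vector in GC content (58.5%), each the opposite of the order with it. Regions from the canonical transcript gave a wild-type start share of 5.48%. Averaging members' means gave a wild-type position of 0.218, below vector (0.321). At 1.5-fold, members lower in wild-type than in vector numbered 1 in place of 0, members higher in G325E than in wild-type 1 in place of 0, and members lower in G325E than in vector 2 in place of 0. DDX3X, the 1 member higher in G325E than in vector, was no longer called with peaks of at least 20 bp, at 3-fold or with a floor of 5 peaks, each leaving 0. By the Gene Name column alone DDX21 had 0 peaks in vector and in G325E.

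With 1 library per construct, differences between constructs, cultures and sequencing depth cannot be told apart. Over genes with peaks in both lists, the median of the per-gene ratios of wild-type to vector peaks was 1.2, while the list totals stood at 1.78 times, so scaling to list totals lowers the wild-type ratios of such genes. For G325E to wild-type the median was 1 and the totals stood at 0.787 times, so there the same scaling raises the G325E ratios. Neighbouring peaks of a gene are not independent, which the intervals do not cover.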

Other observations

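The DDX11L genes, pseudogene copies of the helicase gene DDX11 near chromosome ends, are not in the helicase list but carry its name. DDX11L1, DDX11L2, DDX11L5 and DDX11L9 together had 40 vector, 41 wild-type and 0 G325E peaks. Of all 2045 genes with at least 4 wild-type peaks, 34.2% had no G325E peak. Singly, DDX11L1 had 9, 12 and 0, DDX11L2 had 11, 9 and 0, DDX11L5 had 12, 12 and 0, and DDX11L9 had 8, 8 and 0. The copies are near-identical, so their peaks may come from shared reads and cannot be assigned to a single copy. They are therefore not independent cases. They were singled out after their values were seen.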
